A study of Homo sapiens with 16 samples.

Results

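The response to indisulam was compared between SUM159 and A549 cells as an interaction, the change from untreated to treated SUM159 minus the change from untreated to treated A549, on the log2 scale for each gene. The comparison was set by its groups and used 8 of the 16 RNA-seq libraries of the study, 2 in each of 4 groups: A549 UT and SUM159 UT (untreated) and A549 IN and SUM159 IN (3 µM indisulam for 16 h). The other 8 libraries held the same lines with 2 µM palbociclib (PD) or with palbociclib and indisulam at those doses (P+I), also for 16 h, and gave the same interaction in libraries that the main contrast did not use. A549 is a lung cancer line with a KEAP1 mutation, and SUM159 is a triple-negative breast cancer line. The study gave RPMI as the medium of A549 and DMEM/F12 with added insulin and hydrocortisone as that of SUM159, so line and medium cannot be told apart. The study described its libraries as technical duplicates, and the p-values therefore measured only the spread between these samples.

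Indisulam is an aryl sulfonamide that acts as a molecular glue. It brings the splicing factor RBM39 to DCAF15, the substrate receptor of a CUL4 ubiquitin ligase, and RBM39 is then degraded, after which exons are skipped or introns kept in many transcripts. Palbociclib inhibits CDK4 and CDK6, the kinases that start the phosphorylation of RB in G1.

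Gene counts ran from 18306636 to 28612899 in the 8 libraries. Levels are given in CPM, counts scaled by TMM to a common library size. Taken over a library's own gene counts, without the TMM factor, a count of 3 was 0.088 to 0.1639 CPM over the series. The epithelial genes CDH1 and EPCAM were at 22.8 CPM or more in A549 and at 0.408 or less in SUM159, and SPARC, a matrix gene of mesenchymal cells, was at 473 CPM or more in SUM159 and 0.317 or less in A549. The epithelial keratin KRT7 did not separate the lines in this way, with means of 1520 CPM in A549 UT and 1877 in SUM159 UT. The lung markers NKX2-1, SFTPB, SFTPC and NAPSA stayed at 0.801 CPM or less in A549, and ESR1 and PGR at 0.436 or less in SUM159, while ERBB2 reached 113 CPM there. Of markers of cells not in culture, CD3E, CD68 and ALB were at 0.268 CPM or less, whereas PECAM1 and PTPRC were at 16.5 to 29.2 and 2.88 to 3.95 CPM in SUM159. One library stood apart: SUM159 UT replicate 2, in which the mitochondrial-encoded genes had a lower share of the counts than in the other 15 libraries, described below. Fewer cells of a kind and less RNA per cell cannot be told apart in bulk samples.

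Genes that passed in both lines mostly moved the same way. Indisulam passed the test on 8117 genes in A549, of which 3884 were higher (21.9% of the 17764 genes tested) and 4233 lower (23.8%), and on 7220 genes in SUM159, of which 3444 were higher (19.4%) and 3776 lower (21.3%), at an adjusted p under 0.05 in edgeR's quasi-likelihood test. With scaling to total counts the higher share of the SUM159 calls was 58.23% in place of 47.7%. Both responses passed for 4673 genes, 4433 of them in one direction. Over the 9571 genes that averaged 5 CPM or more in both lines the responses had a Pearson r of 0.763 and a Spearman rho of 0.729, a description over genes that share libraries and scaling, and their SD was 0.400 in A549 and 0.328 in SUM159.

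The line difference itself passed for 2666 genes (15%). Of these, 1428 were higher in SUM159 relative to A549 (8.04%) and 1238 were lower (6.97%). At a difference of at least 1 on the log2 scale, 249 genes were higher (1.40%) and 59 lower (0.332%). The largest class, of 971 genes, had a response that passed in A549 alone, and 621 had one that passed in SUM159 alone. Another 666 moved in one direction in both lines but further in A549, with median responses of -0.73 in A549 and -0.32 in SUM159. The converse, a larger move in SUM159, was found for 142 genes with medians of -0.12 and -0.33. Opposite responses, with both lines and the difference past the threshold, made up 239 genes (1.35%), and 27 had a line difference with neither response passing. Of the 2666 genes, 8 were under 0.5 CPM in A549 and at 5 CPM or more in SUM159, and 17 the reverse, so that for these 1 of the responses was measured near the floor. The split depended on the fit: 1608 higher and 950 lower with total-count scaling, 1550 and 891 with no filter, 990 and 1006 by DESeq2, and 1004 and 1132 without A549 UT replicate 1. Leaving out 1 library brought the line difference down to 1725 genes (without SUM159 IN replicate 2) or 1735 (without A549 UT replicate 2).

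**Figure D1:**
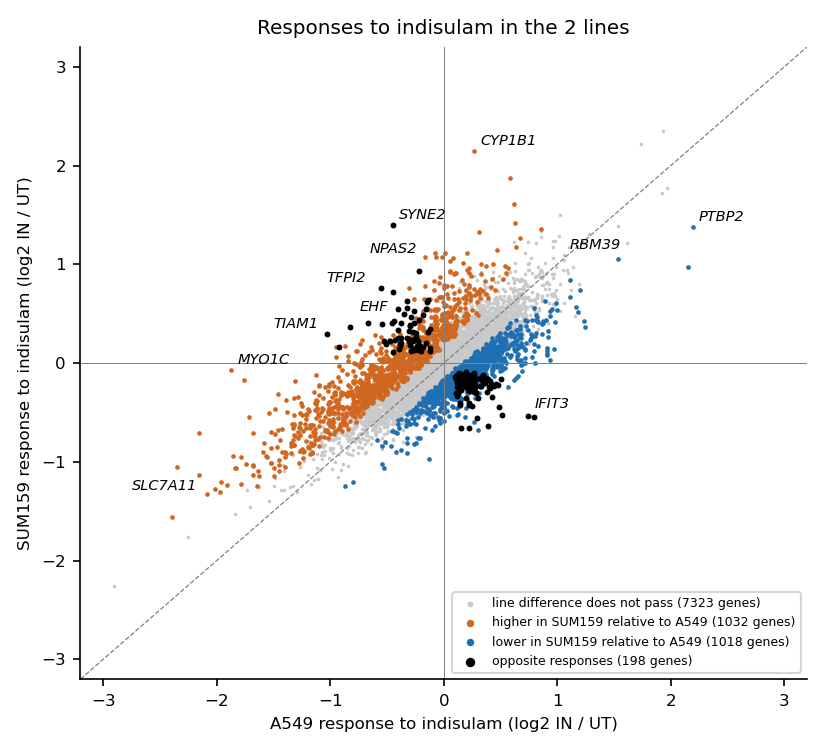
Response to indisulam in A549 (horizontal axis) and SUM159 (vertical axis), log2 of IN over UT, for 9570 genes that averaged 5 CPM or more in both lines; 1 gene lies outside the axes, and the dashed line marks equal responses. Most points lie near the dashed line, with SYNE2, TFPI2 and TIAM1 in the upper left and IFIT3 in the lower right quadrant among 198 genes with opposite responses.

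The line difference did not pass for RBM39, RBM23 or DCAF15, the proteins that indisulam binds together. RBM39, the splicing factor that indisulam marks for degradation, was at 178 and 184 CPM in A549 UT and at 380.3 and 375 in A549 IN, and at 216 and 212 CPM in SUM159 UT and at 459 and 453 in SUM159 IN. Its transcript was thus higher in every treated library than in any untreated one, by 1.06 in A549 and 1.09 in SUM159 on the log2 scale, and the difference of 0.03 (SE 0.05) did not pass (edgeR adjusted p = 0.772). RBM23, a second RBM protein recruited by DCAF15, differed by -0.06 (SE 0.06, adjusted p = 0.606) and DCAF15 itself by -0.21 (SE 0.14, adjusted p = 0.344). Of the 8 genes of this ligase and its RBM substrates only RBX1, the RING subunit, passed (-0.31, adjusted p = 0.024), and it missed the threshold in 5 of the 8 fits that left out 1 library each. CCNH, the cyclin of the CDK-activating kinase, fell from 27.9 and 24.5 to 9.44 and 8.59 CPM in A549 and from 51.4 and 51.0 to 18.7 and 19.99 in SUM159. That fall was -1.54 in A549 and -1.40 in SUM159, and the difference of 0.14 (SE 0.12) did not pass (edgeR adjusted p = 0.487). Exons of CCNH overlap RASA1 on the other strand. CDK7, its partner kinase, differed by -0.29 (adjusted p = 0.0128), a call lost in 3 of those 8 fits, while MNAT1 (-0.08) and CDK2 (-0.01) did not pass.

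Among the opposite responses, 97 genes were higher in SUM159 and lower in A549 (0.546%) and 142 were lower in SUM159 and higher in A549 (0.799%). Both moves reached 0.5 on the log2 scale for 27 of the 239 genes and 1 for 6 of them, so that most were small in at least 1 line. The 97 genes had median responses of -0.37 in A549 and 0.37 in SUM159, and the 142 genes had 0.21 and -0.19. The count fell to 126 without SUM159 IN replicate 2, 130 without SUM159 UT replicate 2, 147 without SUM159 IN replicate 1 and 158 without SUM159 UT replicate 1, and was 159 by DESeq2 and 362 in a fit of the 8 libraries alone. Under every alternative fit run, 37 of the 239 genes kept the call, among them SYNE2, TFPI2, EHF, TIAM1, IFIT3 and STOML1.

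SYNE2 (chr14:63761899-64226433, GRCh38, plus strand, 116 exons) encodes nesprin-2, a giant spectrin-repeat protein that ties the nuclear envelope to the cytoskeleton. It was at 45.0 and 50.5 CPM in A549 UT, 33.2 and 36.6 in A549 IN, 25.4 and 28.4 in SUM159 UT, and 70.3 and 71.5 in SUM159 IN. Both treated A549 libraries lay below both untreated ones, and the SUM159 groups were further apart in the other direction without overlap. SYNE2 fell by 0.45 in A549 (adjusted p = 8.68e-05) and rose by 1.40 in SUM159, a line difference of 1.85 (SE 0.11, edgeR adjusted p = 1.04e-10).

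TFPI2 (chr7:93885396-93890753, minus strand, 5 exons), a secreted Kunitz-type protease inhibitor of the matrix, was at 167 and 165 CPM in A549 UT and 114 and 112 in A549 IN. In SUM159 it was at 57.3 and 61.3 CPM untreated and 105 and 95.9 treated. The groups did not overlap in either line, and the lines drew closer together on the drug, with a difference of 1.31 (SE 0.07, edgeR adjusted p = 2.00e-11). Exons of GNGT1, at 1.85 CPM or less in these 8 libraries, overlap it on the other strand. EHF, an epithelial ETS transcription factor, fell from 67.8 and 75.6 to 55.9 and 49.5 CPM in A549 and rose from 4.68 and 3.81 to 6.94 and 7.01 in SUM159, where it was low throughout (difference 1.16, SE 0.15, adjusted p = 1.11e-05). TIAM1 (chr21:31118416-31559977, minus strand, 28 exons), a guanine exchange factor for RAC1, fell in A549 from 7.16 and 7.17 to 3.28 and 3.75 CPM and rose in SUM159 from 26.8 and 27.4 to 34.4 and 32.2, a difference of 1.32 (SE 0.15, adjusted p = 2.38e-06). OSBP2, an oxysterol-binding protein, had responses of -0.43 and 0.42, and lost the opposite call under 4 of 15 alternatives.

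STOML1 (chr15:73978926-73994622, minus strand, 7 exons), which encodes a stomatin-like membrane protein, moved the other way, from 5.93 and 5.6 to 8.29 and 8.14 CPM in A549 and from 18.8 and 22.1 to 14 and 14.5 in SUM159 (difference -1.03, SE 0.15, adjusted p = 5.69e-05). The groups did not overlap in either line, and the level was higher in SUM159 than in A549 before and after treatment.

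**Figure D2:**
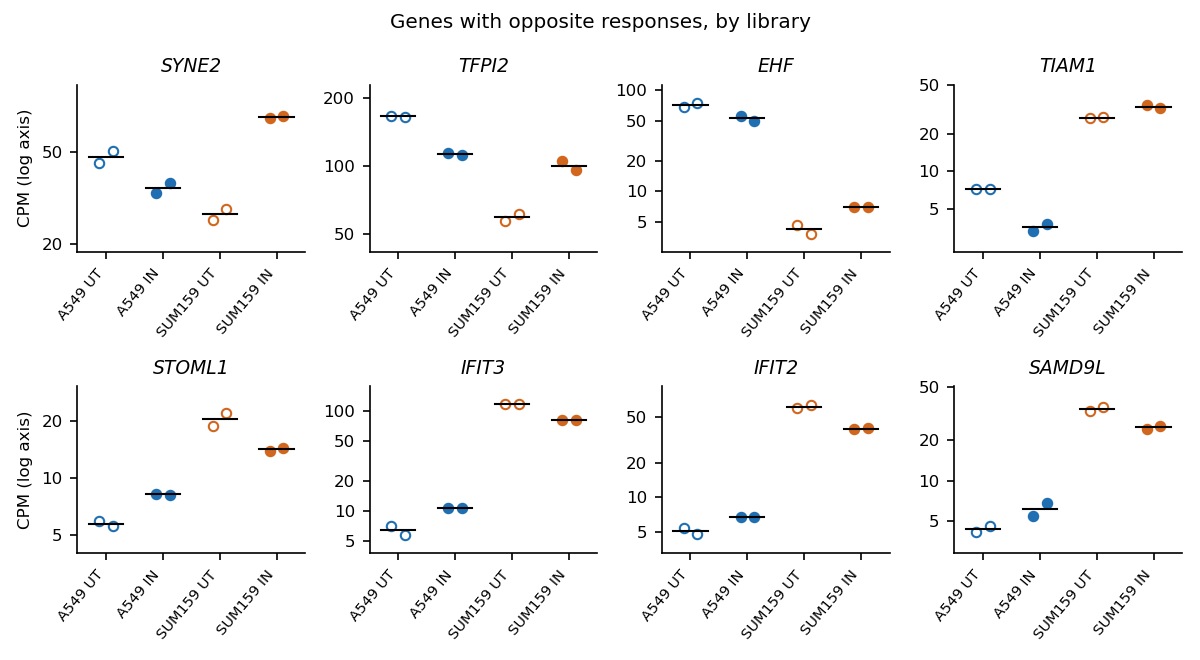
CPM on a log axis of 8 genes with opposite responses in each library of the 4 groups (open points untreated, filled points 3 µM indisulam, blue A549, orange SUM159; bars are means of 2 libraries). In each panel of the upper row the A549 points move down and the SUM159 points up, and in each panel of the lower row the reverse.

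Genes of the interferon response stood in both directions. These genes are switched on by type I interferon through the transcription factor complex ISGF3, and the IFIT proteins bind foreign RNA. IFIT3 (chr10:89327307-89377473, plus strand) was at 7.05 and 5.66 CPM in A549 UT and 10.7 and 10.7 in A549 IN, and at 119 and 119 CPM in SUM159 UT and 82.7 and 81.3 in SUM159 IN. IFIT2 (chr10:89283694-89309271, plus strand) went from 5.39 and 4.84 to 6.74 and 6.74 CPM in A549 and from 60.5 and 63.2 to 39.5 and 40.1 in SUM159. All treated A549 libraries were thus above, and all treated SUM159 libraries below, their untreated ones. The line difference was -1.28 for IFIT3 (SE 0.12, edgeR adjusted p = 1.73e-07) and -1.03 for IFIT2 (SE 0.14, adjusted p = 2.38e-05). IFIT2 lost its opposite call, its rise in A549, without A549 IN replicate 1, A549 IN replicate 2 or A549 UT replicate 2. IFIT1 fell in SUM159 from 71.4 and 68.3 to 43.0 and 44.2 CPM, and its response of 0.30 in A549 did not pass (adjusted p = 0.0697). LIPA, the lysosomal acid lipase, overlaps IFIT2 and IFIT3 on the other strand and fell in both lines, by 0.79 in A549 and 0.66 in SUM159. The strand setting of the counting was not given in the sources used here, and its part in the IFIT values was not tested.

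Of the 27 interferon-stimulated genes tested, 17 fell and 2 rose in SUM159, and in A549 8 fell and 5 rose. Their line difference passed for 8 (29.6%, against 15% of all genes): IFI44, IFIT1, IFIT2, IFIT3 and OAS2 were lower in SUM159 relative to A549, and 3 were higher, OAS1 and OAS3 among them. Among genes at 5 CPM or more in each line, 2248 of 9571 passed. The list's median difference was -0.19, against 0.02 for all genes. IFI44 fell in SUM159 from 78.2 and 75.7 to 27.96 and 29.5 CPM, by 1.42 on the log2 scale, but was at 0.724 CPM or less in A549, so its difference of -1.92 (SE 0.42) rested on few counts there. OAS3, a sensor of double-stranded RNA, fell in both lines, by 0.78 in A549 and 0.44 in SUM159. OAS1 lost its call in 6 of 8 fits that left out 1 library. SAMD9L, an interferon-induced antiviral factor that was not on the list, went from 4.17 and 4.61 to 5.45 and 6.83 CPM in A549 and from 33.4 and 35.3 to 24.5 and 25.9 in SUM159 (difference -0.93, SE 0.17, adjusted p = 6.93e-04), and lost its opposite call without A549 IN replicate 2 or A549 UT replicate 1.

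The promoters of the lower group are shown because ISGF3 binds the interferon-stimulated response element. RefSeq promoter sequences (GRCh38.p14) were searched over the whole entry and on both strands for GAAANNGAAACT, whose reverse complement is AGTTTCNNTTTC. Of 35116 promoters 96 held it (0.273%). The lines below print only the 250 bases of an entry before the start, plus strand, while the counts are for whole entries. Among the 5 genes lower in SUM159, 3 had an entry and all 3 held the letters, in capitals in the lines for IFIT1 (chr10:89392373-89392622), IFIT3 (chr10:89327747-89327996, the first of 2 starts) and IFI44 (chr1:78649539-78649788, the first of 2 starts). Among the 3 higher genes, 2 had an entry and 0 held them, and among the 19 that did not pass, 15 had an entry and 6 held them. Such a match is a description of the letters, not of binding.
IFIT1: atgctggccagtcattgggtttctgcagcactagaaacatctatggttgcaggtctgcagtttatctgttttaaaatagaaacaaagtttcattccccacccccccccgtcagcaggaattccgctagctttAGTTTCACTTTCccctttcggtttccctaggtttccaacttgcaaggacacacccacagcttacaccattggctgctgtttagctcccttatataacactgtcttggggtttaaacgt
IFIT3: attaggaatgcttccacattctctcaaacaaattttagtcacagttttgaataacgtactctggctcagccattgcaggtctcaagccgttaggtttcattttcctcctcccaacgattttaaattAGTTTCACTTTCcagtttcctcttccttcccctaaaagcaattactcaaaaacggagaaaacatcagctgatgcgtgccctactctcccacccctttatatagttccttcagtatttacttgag
IFI44: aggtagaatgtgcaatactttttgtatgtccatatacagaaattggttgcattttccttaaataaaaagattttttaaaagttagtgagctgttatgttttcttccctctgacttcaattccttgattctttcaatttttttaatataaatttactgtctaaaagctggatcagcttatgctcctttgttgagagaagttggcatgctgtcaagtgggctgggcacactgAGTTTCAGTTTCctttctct

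A response confined by rule to 1 line was found for 51 genes (0.287%): the line difference passed, 1 line moved by at least 1 on the log2 scale and passed, and the other moved by less than 0.25 and did not pass, at a mean of at least 1 CPM in each. A549 held 32 of them, 28 lower and 4 higher, and SUM159 held 19, 18 higher and 1 lower. Leaving out 1 library gave 40 to 71 genes, and 9 of the 51 were kept under every alternative fit. MYO1C (chr17:1464186-1492686, minus strand, 32 exons), an unconventional myosin that links membranes to actin, fell in A549 from 258 and 258 to 70.0 and 71.1 CPM. SUM159 expressed it at 20.2 and 19.3 CPM untreated and 17.5 and 20.1 treated, with overlapping groups. The response was -1.87 in A549 and -0.07 in SUM159 (adjusted p = 0.532), a difference of 1.80 (SE 0.10, edgeR adjusted p = 9.95e-12). The histone gene H2AC6 fell in A549 from 9.83 and 8.11 to 4.39 and 3.84 CPM, while in SUM159 it was at 8.35 and 7.44 and then at 7.89 and 6.71, again overlapping (difference 1.01, SE 0.19, adjusted p = 7.70e-04).

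NPAS2 (chr2:100820139-100996829, plus strand, 21 exons), a circadian transcription factor that pairs with BMAL1, was the converse. It was at 140.1 and 137 CPM in A549 UT and 134 and 131 in A549 IN, and rose in SUM159 from 13.4 and 11.7 to 26.4 and 26.4. Its response was -0.07 in A549 (adjusted p = 0.288) and 1.07 in SUM159 (difference 1.14, SE 0.09, edgeR adjusted p = 4.60e-09). SPACA6, a sperm membrane protein gene, rose in SUM159 from 5.49 and 4.67 to 10.7 and 10.8 CPM, against 6.2 and 7.23 and then 5.76 and 6.15 in A549 (response -0.17, adjusted p = 0.414), so that the treated libraries were the higher ones in SUM159 only. EREG, which encodes the EGFR ligand epiregulin, fell in A549 from 118 and 122 to 63.5 and 60.3 CPM and was at 84.5 to 91.5 CPM in all 4 UT and IN libraries of SUM159 (difference 1.01, SE 0.07, adjusted p = 1.08e-09). EGLN3, an oxygen-sensing prolyl hydroxylase, rose in SUM159 from 39.4 and 39.7 to 69.0 and 67.5 CPM and was at 28.8 to 31.9 CPM in all 4 UT and IN libraries of A549 (difference 0.78, SE 0.09, adjusted p = 1.76e-06).

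The mitochondrial-encoded protein genes, which code for subunits of the respiratory chain and of ATP synthase, were looked at after their values were seen, since several stood among the SUM159 genes of that rule. All 13 were called higher in treated SUM159 and none passed in A549, with median responses of 0.93 and 0.07, and the line difference passed for all 13, from 0.49 to 1.10. The spread between the untreated SUM159 duplicates was wide. These genes took 3.14% and 1.66% of the counts in SUM159 UT, 4.78% and 4.87% in SUM159 IN, 5.64% and 6.09% in A549 UT, and 6.87% and 5.76% in A549 IN. MT-ND5, a subunit of complex I, was at 1584 and 791 CPM in SUM159 UT and 2506 and 2487 in SUM159 IN, and at 4351 to 5432 CPM in A549. Its difference of 1.09 was 0.67 without SUM159 UT replicate 2 and 1.67 without SUM159 UT replicate 1. The median difference of the 13 genes was 0.48 without SUM159 UT replicate 2, with 7 called, and 1.40 without SUM159 UT replicate 1, with 13 called. The count was 3 without A549 IN replicate 2, 6 without A549 UT replicate 2, 8 without SUM159 IN replicate 2 and 2 by DESeq2, and on palbociclib 0 of 13 passed, with a median of 0.26.

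**Figure D3:**
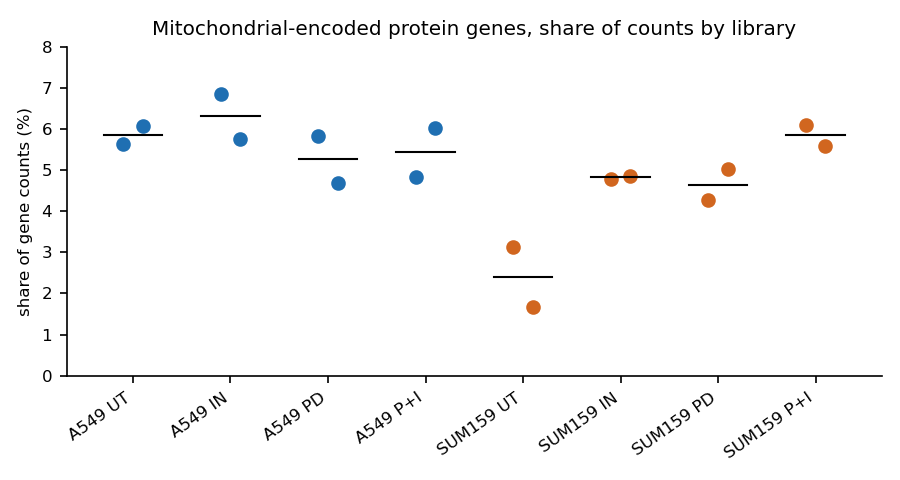
Share of gene counts, in percent, taken by the 13 mitochondrial-encoded protein genes in each of the 16 libraries (points) and the mean of each pair (bars). The SUM159 UT libraries lie at 3.14% and 1.66%, below the other 14, and SUM159 UT replicate 2 is the lowest of all.

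The largest positive differences held 1 gene that rose in both lines. CYP1B1 (chr2:38066973-38109902, minus strand, 3 exons), a xenobiotic-metabolizing cytochrome P450 and a standard target of the aryl hydrocarbon receptor, was at 129 and 131 CPM in A549 UT and 156 and 156 in A549 IN, and at 2.18 and 2.00 CPM in SUM159 UT and 8.76 and 9.69 in SUM159 IN. Treated libraries were above untreated ones in both lines, by 0.26 in A549 and 2.15 in SUM159 (difference 1.88, SE 0.14, edgeR adjusted p = 1.26e-09). Exons of CYP1B1-AS1 and RMDN2 overlap it on the other strand. In the AHR pathway 11 genes were tested, 6 of which rose in each line. The line difference passed for 4 (36.4%), all higher in SUM159, with a list median of 0.32: CYP1B1, the aldehyde dehydrogenase ALDH3A1, the receptor AHR (0.36) and its feedback regulator TIPARP (0.32). ALDH3A1 fell by 0.35 in A549 from 4646 and 4438 CPM, while at 1.13 to 1.71 CPM its response in SUM159 did not pass. CYP1A1, the best known target of the receptor, rose by 2.32 in A549 and 2.44 in SUM159, and the difference of 0.12 had an SE of 1.08. On palbociclib the median difference of the AHR list was 0.05, and 2 of the 4 calls passed again with the same sign.

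The 21 gene lists shown are described by counts and medians alone. Line differences passed in the largest share of members for the cytosolic ribosomal proteins (81.0%), NRF2 targets (55%), SRF, YAP and actin genes (50%) and snoRNA host genes (47.1%), beside 15% of all genes tested, most of which were expressed at lower levels than the ribosomal genes. Of the 9571 genes at 5 CPM or more in each line, 2248 passed, a larger share than of all genes. The genes that passed were all lower in SUM159 in the ribosomal, snoRNA host and cholesterol lists, as was the 1 that passed in the DCAF15 list, and all higher in the AHR list, while the other lists had calls of both signs.

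**Figure D4:**
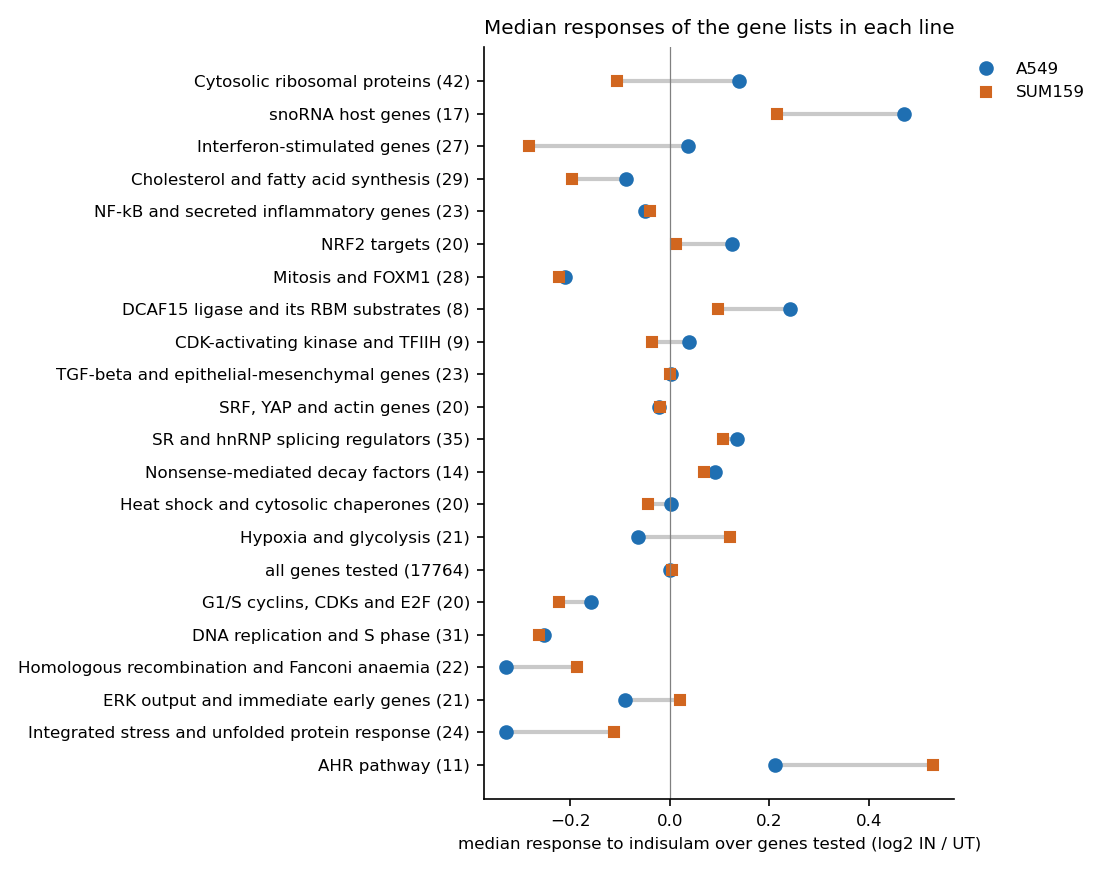
Median response to indisulam (log2 IN over UT) of each gene list in A549 (blue circles) and SUM159 (orange squares), ordered by the median line difference, with the number of genes tested in parentheses. Ribosomal proteins lie at 0.14 in A549 and -0.11 in SUM159, snoRNA hosts at 0.47 and 0.21, and the AHR pathway at 0.21 and 0.53.

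Ribosomal protein genes moved apart by small steps. Of 42 tested, 27 rose and 1 fell in A549, and 0 rose and 19 fell in SUM159. Their median response was 0.14 in A549 and -0.11 in SUM159, and the line difference passed for 34 genes, each lower in SUM159, with a median of -0.23 over the list. They took 3.62% and 3.53% of the counts in A549 UT and 3.97% and 3.98% in A549 IN, against 3.31% and 3.33% in SUM159 UT and 3.17% and 3.14% in SUM159 IN. These shares did not overlap between untreated and treated libraries in either line. RPS14, a protein of the small subunit, had the largest difference: 497 and 482 CPM in A549 UT, 588 and 604 in A549 IN, 519 and 535 in SUM159 UT, and 459 and 482 in SUM159 IN (-0.45, SE 0.07, edgeR adjusted p = 1.59e-04). RPL3, of the large subunit, rose by 0.15 in A549 and fell by 0.28 in SUM159, and RPLP0, of the stalk, fell by 0.40 in SUM159 with -0.02 in A549. The 27 rises in A549 became 15 without A549 UT replicate 2. The lower count ran from 20 (without A549 IN replicate 1) to 36 over the alternatives, and was 22 without SUM159 IN replicate 2. The falls in SUM159 numbered 7 with scaling to total counts and 28 at the most, and its median stayed between -0.13 and -0.06. RPS14 lost its opposite call with total-count scaling and without SUM159 IN replicate 1 or SUM159 UT replicate 2.

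**Figure D5:**
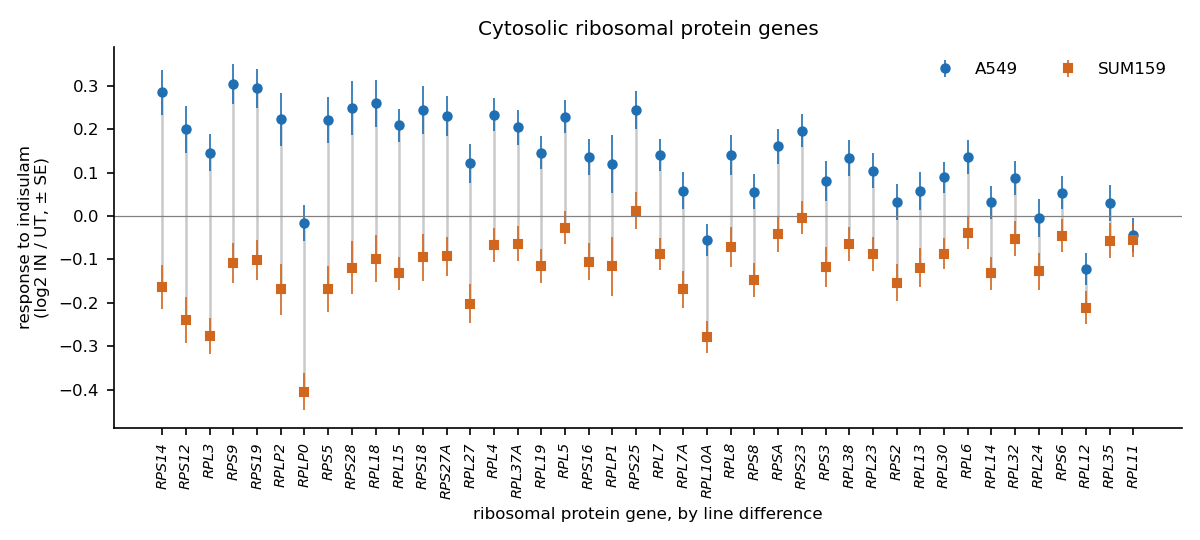
Response to indisulam (log2 IN over UT, bars ± SE) of 42 cytosolic ribosomal protein genes in A549 (blue circles) and SUM159 (orange squares), ordered by line difference. The SUM159 point lies below the A549 point for each gene, from a difference of -0.45 for RPS14 to -0.01 for RPL11, and 34 of the differences pass.

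Host genes of small nucleolar RNAs mostly rose in both lines, and 8 of 17 were lower in SUM159 relative to A549, or 5 without SUM159 IN replicate 1 or SUM159 UT replicate 1. These mostly noncoding transcripts carry snoRNAs in their introns, and their spliced forms are removed by nonsense-mediated decay. Of 17 tested, 14 rose in A549 and 10 in SUM159, where 1 fell. Of all genes tested 21.9% rose in A549 and 19.4% in SUM159. The median responses were 0.47 in A549 and 0.21 in SUM159. GAS5 rose from 125 and 134 to 214 and 219 CPM in A549 and from 119 and 111 to 139 and 150.2 in SUM159 (difference -0.41, SE 0.08, edgeR adjusted p = 8.23e-04). SNHG7 rose in A549 from 25.4 and 26.7 to 41.3 and 40.2 CPM and was at 40.1 to 44.4 CPM in all 4 UT and IN libraries of SUM159 (-0.61, SE 0.10, adjusted p = 1.42e-04), with exons of DIPK1B on the other strand. Among 14 factors of nonsense-mediated decay, 6 rose in each line, and 3 differences passed (21.4%), 1 higher and 2 lower. Fewer passed when any 1 of the 8 libraries was left out. The line difference passed for 15% of all genes tested and for 2248 of the 9571 genes at 5 CPM or more in each line.

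Splicing regulators had responses and differences in both directions. Of 35 SR and hnRNP genes, 18 rose and 11 fell in A549 and 15 rose and 8 fell in SUM159, and 10 differences passed (28.6%), 4 higher and 6 lower. The higher count was 2 or 3 without any 1 of the libraries other than SUM159 UT replicate 1. PTBP2, the neuronal polypyrimidine tract-binding protein whose transcript is itself controlled by splicing and decay, rose from 24.5 and 24.3 to 113 and 109.7 CPM in A549 and from 18.2 and 16.2 to 45.5 and 43.8 in SUM159. The rise was 2.19 in A549 and 1.38 in SUM159, a difference of -0.81 (SE 0.10, edgeR adjusted p = 2.92e-06). HNRNPD, an AU-rich element binding protein, fell in A549 by 0.38, and its response of -0.08 in SUM159 did not pass (difference 0.30, adjusted p = 5.54e-04).

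The line difference of PHLDA3, BAX and CDKN1A passed, and each was lower in SUM159 relative to A549. PHLDA3, an inhibitor of AKT, rose in A549 from 15.3 and 14.7 to 24.3 and 25.1 CPM and was at 17.7 to 19.4 in SUM159 (-0.72, SE 0.15, edgeR adjusted p = 0.00207). BAX, a pro-apoptotic BCL2 family member, rose in A549 from 69.2 and 65.5 to 108 and 105 CPM and was at 56.8 to 59.0 in SUM159 (-0.64, SE 0.07, adjusted p = 2.05e-06). CDKN1A, the CDK inhibitor p21, was at 38.8 and 33.9 CPM in A549 UT, 42.3 and 42.3 in A549 IN, 38.8 and 37.3 in SUM159 UT, and 31.8 and 32.2 in SUM159 IN. Its responses were 0.22 and -0.25, and the rise in A549 missed the threshold without A549 IN replicate 1, A549 IN replicate 2 or A549 UT replicate 2.

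NRF2 targets, the antioxidant genes that KEAP1 holds down, had calls in both directions. Of 20 tested, 10 rose and 3 fell in A549, 5 rose and 4 fell in SUM159, and 11 differences passed, 4 higher and 7 lower. The aldo-keto reductases AKR1C1, AKR1C2 and AKR1C3 were higher in SUM159 relative to A549. AKR1C3 rose there from 54.6 and 51.0 to 81.3 and 84.2 CPM against 1848 and 1798 to 1991 and 1981 in A549 (0.52, SE 0.06, edgeR adjusted p = 2.39e-06). Enzymes of the pentose phosphate pathway and glutathione synthesis (PGD, TKT, TALDO1, GCLC and GCLM) were lower, as was heme oxygenase HMOX1, which fell in SUM159 from 128 and 128 to 98.3 and 99.3 CPM (-0.50, SE 0.08, adjusted p = 1.41e-04). SLC7A11, the cystine transporter, fell in both lines, from 377 and 420.2 to 89.8 and 97.6 CPM in A549 and from 76.3 and 85.6 to 33.5 and 31.0 in SUM159, by 2.09 and 1.33 (difference 0.76, SE 0.09, adjusted p = 1.67e-06).

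Of the integrated stress and unfolded protein response genes, 9 of 24 were higher in SUM159 relative to A549 and 1 was lower. Differences passed for 41.7% of this list and 37.9% of the cholesterol list below, beside 15% of all genes tested. The higher count was 5 without A549 IN replicate 2, A549 UT replicate 1, SUM159 IN replicate 2 or SUM159 UT replicate 2. In this list 16 fell and 3 rose in A549 and 11 fell and 6 rose in SUM159, with medians of -0.33 and -0.11. HSPA5, the chaperone BiP of the endoplasmic reticulum, fell from 726 and 723 to 425 and 418 CPM in A549 and from 1312 and 1300 to 1194 and 1185 in SUM159 (0.65, SE 0.05, edgeR adjusted p = 5.72e-09). ATF3 was the 1 lower gene (-0.63, adjusted p = 0.0255), a call lost in 5 of the 8 fits without 1 library. Cholesterol and fatty acid synthesis genes went the other way: 11 of 29 differences passed, all lower in SUM159, where 18 genes fell and 2 rose, against 12 that fell and 9 that rose in A549. INSIG1, the sterol sensor that retains SCAP, rose in A549 from 32.3 and 33.1 to 44.1 and 42.1 CPM and fell in SUM159 from 88.4 and 81.4 to 74.7 and 68.9 (-0.64, SE 0.09, adjusted p = 4.96e-05), and its fall missed the threshold without SUM159 IN replicate 2 or SUM159 UT replicate 1. MSMO1, an enzyme of late sterol synthesis, also had opposite responses, of 0.19 and -0.21. On palbociclib INSIG1 had a response of -0.11 in A549, which did not pass, and of -0.49 in SUM159. The median difference of the cholesterol list was 0.05 on palbociclib, beside -0.19 in the main contrast. There 7 of the 11 calls passed again with the same sign. The lower count of this list ran from 5 to 14 over the alternatives.

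Most genes of replication and mitosis fell in both lines, and their differences were of both signs. Differences passed for 22.6% of the replication, 25% of the G1/S and 42.9% of the mitotic genes. For the homologous recombination list it was 31.8% and for the CDK-activating kinase list 33.3%. Beside these stood 15% of all genes tested and 2248 of the 9571 genes at 5 CPM or more in each line. Replication and S phase genes fell for 22 of 31 in each line (medians -0.25 in A549 and -0.26 in SUM159), and 7 differences passed, which became 3 without A549 IN replicate 2 or SUM159 UT replicate 1 and 4 without A549 IN replicate 1, A549 UT replicate 2, SUM159 IN replicate 1, SUM159 IN replicate 2 or SUM159 UT replicate 2. CDC6, which loads the replicative helicase, fell from 148 and 148 to 73.5 and 73.6 CPM in A549 and from 239 and 243 to 161 and 162 in SUM159 (0.44, SE 0.06, edgeR adjusted p = 3.31e-05). Of 28 mitotic genes 16 fell in A549 and 17 in SUM159, and 12 differences passed, 8 lower and 4 higher. With total-count scaling 4 were lower and 6 higher. The lower count was 2 without A549 IN replicate 1 or SUM159 UT replicate 2, 3 without A549 UT replicate 2, SUM159 IN replicate 1 or SUM159 IN replicate 2, and 4 without SUM159 UT replicate 1. ECT2, the exchange factor of cytokinesis, fell from 702 and 733 to 298 and 300.4 CPM in A549 and from 201 and 200.2 to 129 and 125 in SUM159 (0.60, SE 0.06, adjusted p = 4.19e-07). CDC20, the activator of the anaphase-promoting complex, fell further in SUM159, from 351 and 351 to 231 and 232 CPM, than in A549, from 172 and 169 to 139.9 and 144 (-0.34, SE 0.05, adjusted p = 1.05e-04). Of 20 G1/S genes 5 differed, or 3 without A549 IN replicate 2, A549 UT replicate 2, SUM159 IN replicate 1, SUM159 IN replicate 2 or SUM159 UT replicate 2. RBL1, the pocket protein p107, fell by 1.38 in A549 and 0.50 in SUM159 (0.88, SE 0.09), and CCND3, which encodes cyclin D3, fell in SUM159 from 162 and 164 to 129 and 130.1 CPM while its rise of 0.12 in A549 was lost under 5 of 15 alternatives. CCNE1 differed by 0.34 (adjusted p = 0.0303), lost in 6 of the 8 fits without 1 library, and CCNE2 (0.28, adjusted p = 0.2) and MKI67 (0.23, adjusted p = 0.154) did not pass. LMNB1, the lamin whose loss marks senescent cells, fell from 199.6 and 201 to 115 and 115 CPM in A549 and from 197 and 191 to 168 and 170.2 in SUM159 (0.61, SE 0.06, adjusted p = 7.19e-07). In the homologous recombination and Fanconi anaemia list 7 of 22 passed, 6 of them higher in SUM159. FANCA of the Fanconi core complex fell from 72.3 and 78.2 to 43.9 and 46.0 CPM in A549 and from 48.2 and 49.9 to 41.0 and 45.9 in SUM159 (0.57, SE 0.09, adjusted p = 1.42e-04), with ZNF276 exons on the opposite strand. The 9 genes of the CDK-activating kinase and TFIIH had 3 calls, 1 higher and 2 lower.

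The remaining lists had calls in both directions. The share that passed ran from 30.4% (NF-kB and TGF-beta lists) to 50% (SRF, YAP and actin genes). Beside these stood 15% of all genes tested and 2248 of the 9571 genes at 5 CPM or more in each line. Of 21 ERK output and immediate early genes 9 differed, 7 higher and 2 lower, with 3 higher without A549 UT replicate 1 and 4 without A549 IN replicate 2. MYC fell in A549 from 186 and 187 to 155 and 155 CPM and rose in SUM159 from 332 and 329 to 387 and 385 (0.49, SE 0.06, edgeR adjusted p = 2.16e-06), and JUN went the other way, from 16.9 and 15.6 to 20.8 and 19.5 CPM and from 65.5 and 64.0 to 49.3 and 52.1 (-0.66, SE 0.13, adjusted p = 0.00167), with a rise in A549 that missed the threshold without any 1 of the 4 A549 libraries. Of 20 SRF, YAP and actin genes 5 were higher, led by the tropomyosin TPM1 (0.61), and 5 lower, led by the YAP target ANKRD1 (-0.76). The 5 higher genes became 3 without A549 IN replicate 1, A549 IN replicate 2, A549 UT replicate 1 or SUM159 IN replicate 2. Heat shock genes gave 4 higher and 4 lower of 20, but 4 and 1 with total-count scaling, and their 8 calls fell to 3, 4 or 5 with any 1 of the 8 libraries left out. Hypoxia and glycolysis genes gave 6 higher and 2 lower of 21 (4 and 1 without A549 UT replicate 1). NF-kB and secreted inflammatory genes gave 2 higher and 5 lower of 23 (2 and 2 without SUM159 IN replicate 1). TGF-beta and epithelial-mesenchymal genes gave 3 higher and 4 lower of 23, which became 1 and 2 without A549 UT replicate 1 and 1 and 3 without A549 IN replicate 2 or SUM159 IN replicate 1. The mesenchymal filament gene VIM fell in SUM159 from 3899 and 3756 to 2779 and 2852 CPM and was at 938 to 961 CPM in A549 (-0.42, SE 0.05, adjusted p = 6.60e-06). Other mesenchymal genes of the list went both ways in SUM159. FN1 went up, from 1691 and 1929 to 2089 and 2117 CPM. CDH2 went down, from 179 and 184 to 160 and 158 CPM, and ZEB1 from 58.7 and 63.1 to 53.6 and 56.3.

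Genes with a positive line difference had longer and more divided gene models than those with a negative one, given here as a description. The median number of annotated exons was 12 for the protein-coding genes higher in SUM159, 8 for those lower and 9 for all tested, and the median span was 53.1, 26.0 and 34.5 kb. Genes that moved in one direction in both lines and further in A549 had medians of 12.5 exons and 48.7 kb. Those that moved further in SUM159, with a median line difference of -0.18, had 12 exons and 40.5 kb. In the opposite classes, genes higher in SUM159 had medians of 12 exons and 67.9 kb, and genes lower in SUM159 had 7 exons and 19.7 kb.

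The same interaction for indisulam added to palbociclib, in the other 8 libraries, passed for 3681 genes (20.7%), 1760 higher in SUM159 (9.91%) and 1921 lower (10.8%). The 2 interactions share no library but share the 1 fit, its scaling and its spread. Across the 9571 genes at 5 CPM in each line their r was 0.722 and rho 0.680, over genes that are not independent. Of the 239 genes with opposite responses, 234 had a line difference of the same sign on palbociclib and 172 passed with that sign, with 0 passing with the other. These counts concern the difference, and whether the 2 responses were again opposite was not counted. On palbociclib the A549 and SUM159 responses were -0.46 and 1.38 for SYNE2 and 0.43 and -0.71 for IFIT3. For INSIG1 they were -0.11 and -0.49, and for CCND3 -0.005 and -0.33. Of all genes tested, 70.4% had the same sign in both interactions and 19.1% passed on palbociclib with the sign of the main contrast. Of the 1428 higher genes 1354 kept their sign and 829 passed, and of the 1238 lower genes 1188 and 809. SYNE2 was at 30.9 and 28.8 CPM in A549 PD and 19.3 and 23.8 in A549 P+I, and at 36.1 and 40.6 in SUM159 PD and 103 and 96.5 in SUM159 P+I. The groups again did not overlap, and its difference there was 1.84, that of TFPI2 1.19, IFIT3 -1.14, MYO1C 1.47 and NPAS2 1.07 (each edgeR adjusted p below the threshold of 0.05). On palbociclib the SUM159 response was -0.27 for MYO1C (edgeR adjusted p = 0.00246) and -0.52 for H2AC6 (adjusted p = 5.07e-04). The A549 response was 0.16 for NPAS2 (adjusted p = 0.0072). These passed, so for these genes the response was not confined to 1 line there. For SPACA6 (-0.31, adjusted p = 0.121) and MT-ND5 (0.09, adjusted p = 0.704) the A549 response did not pass. CDKN1A was at 29.7 and 33.5 CPM in A549 PD and 54.2 and 51.4 in A549 P+I, and at 33.7 and 34.7 in SUM159 PD and 27.1 and 27.8 in SUM159 P+I, a difference of -1.05 (SE 0.09, edgeR adjusted p = 2.17e-08) beside -0.47 without palbociclib. Whether the 2 differences of CDKN1A differed from each other was not tested. Of the lists, 25 ribosomal protein genes passed on palbociclib, and 23 of them had also passed, with the same sign, in the main contrast. H2AC6 (0.39, adjusted p = 0.106) and the mitochondrial-encoded genes did not pass there.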

How the data were processed

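RNA-seq was measured in A549 and SUM159 cells, 2 libraries in each of 8 groups. Total RNA was made into stranded mRNA libraries and sequenced as 75 bp pairs on a NextSeq550. The authors trimmed adapters with SeqPurge and aligned to GRCh38 (genome_snp_tran), and the submitters' processing notes name HISAT2 2.2.1 and HTSeq. The deposited values are raw read counts per Ensembl gene with no normalization by the authors. The strand setting and annotation release of the counting were not given in the sources used here. The files' rows for reads in no gene (4.06% to 6.37% of the reads in 1 gene, several or none, over these 8 libraries) or in several genes were left out.

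Genes were filtered with filterByExpr (17764 of 58676 kept), scaled by TMM and fitted in 1 quasi-likelihood model of all 16 libraries in edgeR 4.0.16 (R 4.3.3) with 1 coefficient per group, which left 8 residual degrees of freedom. P-values were adjusted by Benjamini-Hochberg over all genes tested. Values are CPM on the TMM scale. Of the identifiers, 58207 matched GENCODE release 44, which gave symbols, coordinates and overlaps, and RefSeq gave promoters. Duplicates differed by more than counting noise in each group (chi-square per degree of freedom 1.65 to 10.0). Named genes were a fixed set around RBM39 and the cell cycle, the 4 largest differences in each direction, the 4 strongest opposite genes in each orientation and 3 line-specific genes per line and direction at a mean of at least 5 CPM in each line, and the passing extremes of each list. Other list members were picked as examples after their values were seen. The gene set, lists and rules were chosen with earlier results of these data known. On simulated counts, 87% of 200 genes moved by 1 log2 unit in the line difference were recovered among 16772 tested, and 2.25% of the calls were false. All groups of a line had its untreated levels there. Only these 200 genes moved, as many up as down, in SUM159 IN, and each was at 1 CPM or more in both lines. In the data far more genes responded, in both lines, so the simulation does not give the share of false calls in the data. DESeq2 1.42.0, other scalings and filters, the 8 libraries alone, a replicate block and each library left out in turn were the alternatives. The floor of 3 counts covers counting error only. Some items are not reported here.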

Additional observations from a re-analysis of the deposited data

Results flagged for a closer look

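The genes below are flagged because the response to indisulam differed between the lines in the test of the difference itself (edgeR, adjusted p under 0.05), and the values are line differences on the log2 scale, SUM159 minus A549. Among genes already described, the positive differences were CYP1B1 1.88, SYNE2 1.85, MYO1C 1.80, TIAM1 1.32, TFPI2 1.31, SPACA6 1.25, EHF 1.16, NPAS2 1.14, MT-ND5 1.09, EREG 1.01, H2AC6 1.01, RBL1 0.88, OSBP2 0.86, EGLN3 0.78, SLC7A11 0.76, TPM1 0.61, LMNB1 0.61, ECT2 0.60, FANCA 0.57, OAS1 0.47, CDC6 0.44, CCNE1 0.34 and HNRNPD 0.30. The negative ones were CDK7 -0.29, RBX1 -0.31, CDC20 -0.34, CCND3 -0.45, RPS14 -0.45, CDKN1A -0.47, HMOX1 -0.50, SNHG7 -0.61, ATF3 -0.63, INSIG1 -0.64, JUN -0.66, PHLDA3 -0.72, ANKRD1 -0.76, PTBP2 -0.81, SAMD9L -0.93, IFIT2 -1.03, STOML1 -1.03, IFIT3 -1.28 and IFI44 -1.92.

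Others were members of the lists with the highest or lowest passing difference. MMP1, the interstitial collagenase, rose in SUM159 from 13.8 and 15.01 to 39.9 and 38.1 CPM and was at 0.35 CPM or less in A549, close to the level of 3 counts, which gave a difference of 2.72. SNAI2, the EMT factor SLUG, differed by -1.58, also with few counts in A549, and its relative SNAI1 by 0.69, a call lost in all 8 fits that left out 1 library. The TFIIH subunits GTF2H1 and GTF2H3 differed by 0.36 and -0.40, the Fanconi translocase FANCM by -0.42, the licensing factor CDT1 by -0.50, the mitochondrial co-chaperonin HSPE1 by -0.58 and the co-chaperone CHORDC1 by 0.30. The decay factor UPF3A differed by 0.27, the exon junction helicase EIF4A3 by -0.21 and the glycolytic regulator PFKFB3 by -0.32. The nucleotide excision repair factor XPC differed by 0.33, a call lost in 2 of 8 fits that left out 1 library.

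Reads that fell in no gene are outside the count comparisons. Their share was higher in the treated than in the untreated libraries of each line, by 1.64 percentage points in A549 and 2.06 in SUM159, as the difference of the means of 2 libraries. The share was 4.23% and 4.80% in A549 UT, 6.02% and 6.29% in A549 IN, 4.17% and 4.06% in SUM159 UT, and 5.97% and 6.37% in SUM159 IN.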

How the results depend on the processing

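The p-values rest on technical duplicates, and small responses of opposite sign depend on where the scaling sets 0, which moved the median of all genes by at most 0.0512 on the log2 scale. Leaving out 1 library gave 1725 to 2139 line differences, 126 to 211 opposite responses and 40 to 71 line-specific responses, and for the line difference on palbociclib 2491 to 3563. With a minimum absolute log2 value of 1, the counts were 308 for the line difference, 1432 for A549, 933 for SUM159, 6 for opposite responses and 417 on palbociclib. The opposite count was 159 by DESeq2, with 1996 line differences, and 362 with the 8 libraries alone, with 3483. Across the single genes, 877 values kept their direction and side of the threshold, 73 lost the call and 3 gained it. The difference of CDK2, which did not pass, changed sign with total-count scaling (0.015), with no filter (0.016) and ranged from -0.05994 to 0.04115 when libraries were left out. Of the 56 named genes that passed, 44 passed with every library left out in turn, and the other 12 were RBX1, GTF2H1, CDT1, XPC, ATF3, OAS1, UPF3A, EIF4A3, SNAI1, SNAI2, CDK7 and CCNE1. The causes were not tested.

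A replicate block, with the replicate number within each line as a term, gave 2427 line differences, 216 opposite and 51 line-specific responses, 7904 genes in A549, 7034 in SUM159 and 3444 on palbociclib. The numbers do not pair the libraries: deviations of same-numbered UT and IN libraries correlated at 0.00722 in A549 and -0.01147 in SUM159.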

Other observations

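Some genes not described above, chosen after their values were seen, moved in opposite directions or in 1 line. IGFBP3, a secreted binding protein of insulin-like growth factors, was at 1159 and 1127 CPM in A549 UT and 747 and 711 in A549 IN, and at 2.45 and 2.22 CPM in SUM159 UT and 4.25 and 3.82 in SUM159 IN. It fell by 0.65 in A549 and rose by 0.78 in SUM159, from a level that was far lower, and the line difference was 1.43 (SE 0.13, edgeR adjusted p = 1.04e-07). AREG, which encodes the EGFR ligand amphiregulin, fell in A549 from 77.5 and 74.8 to 45.5 and 45.6 CPM and was at 9.83 to 11.3 CPM in SUM159, with a difference of 0.70 (SE 0.10, edgeR adjusted p = 6.08e-05) that was 0.10 on palbociclib and did not pass there. TGFBR2, the type II receptor of TGF-beta, fell by 0.29 in A549 and rose by 0.12 in SUM159 (difference 0.41, SE 0.05, edgeR adjusted p = 6.26e-06). XRCC2, a factor of homologous recombination, fell by 0.25 in A549 and rose by 0.26 in SUM159 (difference 0.51, SE 0.09, edgeR adjusted p = 5.79e-04). BRIP1, the helicase partner of BRCA1, fell in A549 by 0.44, and its response of 0.09 in SUM159 did not pass (difference 0.53, SE 0.08, edgeR adjusted p = 1.42e-04).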
